A study of Arabidopsis thaliana with 18 samples.

Results

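The genes described here are 8 transcription factor genes of Arabidopsis thaliana light signalling, HY5, HYH and the B-box genes BBX20 to BBX25, taken by locus from a count table of 32833 genes. All 8 were in the table, 7 passed the filter on low counts and were tested, and BBX23 did not pass it. Poly-A RNA had been sequenced from hypocotyls, the stem of the seedling below its cotyledons, in 18 libraries, 3 for each of 6 groups. The groups were the wild type (WT) and the hy1 mutant, each at 0 h in darkness and at 12 h and 24 h after a move from darkness to light. HY1 is a plastid haem oxygenase needed to make the bilin chromophore of phytochromes, so phytochrome function is impaired in hy1 plants. The hy1 allele, the accession, the age of the seedlings and the light source were not given in the sources used here. Sample titles call the WT libraries mock, and genotype was taken here from the sample descriptions and count columns, so a treatment that differed along with genotype cannot be told apart from it. No group was kept in darkness for 12 h or 24 h, so light and elapsed time cannot be told apart. The labels do not say that the 3 libraries of a group came from separate cultures, so p-values measure only the spread between these samples, which may be technical. In whole hypocotyls, fewer cells that use a gene and less RNA per cell cannot be told apart either.

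HY5 (ELONGATED HYPOCOTYL 5) is a bZIP transcription factor that promotes photomorphogenesis, the change from growth in darkness to growth in light. In darkness HY5 protein is degraded through the COP1/SPA ubiquitin ligase, and in light photoreceptors restrain that ligase so that HY5 accumulates. HYH is its closest homologue and acts partly in its place. The B-box proteins are zinc finger proteins that bind HY5 and alter its activity at shared target genes. BBX20 (also BZS1), BBX21 (also STH2), BBX22 (also LZF1) and BBX23 are known as promoters of photomorphogenesis, whereas BBX24 (also STO) and BBX25 (also STH) are known to oppose HY5.

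HY5 binds DNA at motifs with an ACGT core, among them the G-box (CACGTG) and the T/G-box (CACGTT), and is known to act on its own promoter and on those of BBX genes. The 250 bases before the annotated start of each gene were read from the RefSeq TAIR10.1 genome and searched on both strands for the G-box CACGTG, the T/G-box CACGTT and the core ACGT, which is contained in the others. CACGTG was in 0 of the 8 promoters, against 6.49% of 27443 promoters of the same length. CACGTT was in 1 of 8, that of HY5, against 7.54%, and ACGT was in 4 of 8, those of HY5, HYH, BBX20 and BBX24, against 44.1%. A match describes the letters alone, and no match says only that they are not in this window. Of these promoters, 4 are printed because they belong to both related pairs compared below, in which HYH rose more than HY5 and BBX25 more than BBX24. Each runs 5′ to 3′ on the strand of its gene and ends at the base before the start. Capitals mark CACGTT in HY5, at 9 to 4 bases before the start, and ACGT in HYH, at 55 to 52 bases, and in BBX24, at 100 to 97 bases. BBX25 held none of the 3 motifs. The stretches are chr5:3595074-3595323 on the minus strand (HY5), chr3:6023594-6023843 on the plus strand (HYH), chr1:1829984-1830233 on the minus strand (BBX24) and chr2:13381517-13381766 on the plus strand (BBX25).
HY5: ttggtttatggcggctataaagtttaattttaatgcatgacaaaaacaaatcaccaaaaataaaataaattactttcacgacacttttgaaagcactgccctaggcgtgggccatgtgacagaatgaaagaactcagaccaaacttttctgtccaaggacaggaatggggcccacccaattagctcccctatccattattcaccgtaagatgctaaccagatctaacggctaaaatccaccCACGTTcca
HYH: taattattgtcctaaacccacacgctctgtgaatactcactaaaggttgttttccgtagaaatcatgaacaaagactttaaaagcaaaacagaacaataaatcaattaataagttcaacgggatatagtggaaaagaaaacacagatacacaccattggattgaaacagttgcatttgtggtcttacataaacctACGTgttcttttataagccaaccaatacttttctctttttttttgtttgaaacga
BBX24: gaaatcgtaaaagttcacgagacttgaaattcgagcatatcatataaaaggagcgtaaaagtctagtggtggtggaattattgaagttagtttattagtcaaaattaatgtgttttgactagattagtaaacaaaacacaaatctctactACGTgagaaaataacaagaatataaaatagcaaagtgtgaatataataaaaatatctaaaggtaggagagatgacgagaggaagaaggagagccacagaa
BBX25: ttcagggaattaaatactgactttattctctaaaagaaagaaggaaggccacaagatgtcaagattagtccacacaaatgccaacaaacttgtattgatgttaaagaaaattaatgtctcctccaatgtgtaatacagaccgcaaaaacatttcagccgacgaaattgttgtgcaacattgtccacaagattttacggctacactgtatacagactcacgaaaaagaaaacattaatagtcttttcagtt

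On the deposited TAIR10 gene models HY5 (AT5G11260) lies on chromosome 5 from 3593335 to 3595073 and HYH (AT3G17609) on chromosome 3 from 6023844 to 6024710. BBX20 (AT4G39070) lies on chromosome 4 from 18204631 to 18206684 and BBX23 (AT4G10240) on the same chromosome from 6368829 to 6369950. BBX21 (AT1G75540) lies on chromosome 1 from 28365824 to 28367738, BBX22 (AT1G78600) from 29566863 to 29568931 and BBX24 (AT1G06040) from 1828340 to 1829983. BBX25 (AT2G31380) lies on chromosome 2 from 13381767 to 13383470. Reads were counted over exons without regard to strand, and a read overlapping more than 1 gene was left out. Exons of BBX24 share 267 bases with AT1G06045 on the other strand, which had 0 counts in all 18 libraries. Exons of BBX25 share 48 bases with AT2G31390, which had 2249 to 5746 counts, and those of BBX20 share 4 bases with AT4G39060, which had 0 to 22, so a few reads of these genes could not be assigned.

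Library totals ran from 38469946 to 59905064 counts. Among the WT libraries, replicates 2 and 3 of the 12 h group and replicate 3 of the 24 h group stood apart across genes. They are called the 3 deviating libraries here. Correlations within a group were 0.9519 to 0.9744 for the 4 pairs that join 1 of these 3 to the rest of its group. For the other 14 pairs they were 0.9864 to 0.9953. At WT 12 h replicates 2 and 3 were close to each other (0.9864), and replicate 1 was less close to them (0.9519 and 0.9706). Within that group the odd library could thus be replicate 1, which the name of the 3 does not settle. Calls of the 8 genes that change without the 3 deviating libraries are given with and without them below. That alternative leaves 1 library at WT 12 h and 2 at WT 24 h. HY1 itself was still read in every hy1 library, at 34.4 ± 2.47, 21.9 ± 2.14 and 18.9 ± 0.545 CPM (counts scaled to library size with TMM factors; SD, n = 3) at 0 h, 12 h and 24 h, against 44.9 ± 2.78, 27.6 ± 5.62 and 39.2 ± 4.79 in WT. It was lower in hy1 at 24 h by a log2 difference of -1.05 (adjusted p = 6.6e-05) and at 0 h by -0.39 (adjusted p = 0.041, and 0.053 to 0.12 when any of 8 libraries was left out). At 12 h the difference was -0.34 (adjusted p = 0.06, and 0.0015 without the 3 libraries). Each of the 4 root hair markers was at 0 in 14 or more of the 18 libraries, and their summed level was 0 to 1.52 CPM. The 3 shoot meristem markers summed to 18.5 to 27.5 CPM at WT 0 h, 4.87 to 10.3 at 12 h and 3.24 to 8.75 at 24 h, and in hy1 to 14 to 15.9, 16.9 to 24.1 and 15.2 to 19.6. They were mostly STM, with WUS at 0 in 10 libraries and CLV3 in 5. The 5 stomatal lineage markers summed to 3.87 to 7.3, 4.22 to 14.4 and 3.64 to 7.31 CPM in WT and to 1.22 to 2.15, 12.5 to 20.8 and 4.74 to 9.41 in hy1. The 5 CASP genes of the endodermis summed to 394 to 492, 575 to 742 and 37.3 to 69.8 CPM in WT and to 279 to 336, 345 to 380 and 70.4 to 85.2 in hy1. The part of these tissues in the results was not tested.

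After 12 h of light, transcripts of 6 of the 7 tested genes had risen in WT and in hy1, and none had fallen. HYH and BBX25 rose most, from a few CPM or less in darkness, HY5, BBX20, BBX22 and BBX24 rose less, and BBX21 was already abundant in darkness and did not pass the test. Genes were tested with edgeR's quasi-likelihood test and called at a Benjamini-Hochberg adjusted p under 0.05, and a change is a log2 difference ± standard error. Against the 6 of 7, 53.6% of the 20955 tested genes were called in WT at 12 h, 28.3% higher and 25.3% lower, and 44.2% were called in hy1, 22.9% higher and 21.3% lower. At 24 h against 0 h, 6 of the 7 had risen in WT, where 47.7% of genes were called, 24.6% higher and 23.1% lower, and 5 of the 7 in hy1, where 40.5% were called, 20.4% higher and 20.1% lower. From 12 h to 24 h, 1 gene rose and 3 fell in WT (9.08% of genes called, 3.67% higher and 5.41% lower), and 2 rose and 3 fell in hy1 (4.89% of genes called, 2.35% higher and 2.54% lower). The change over 12 h and over 24 h shares the 0 h libraries, and the pairs of changes below share libraries in the same way.

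**Figure D1:**
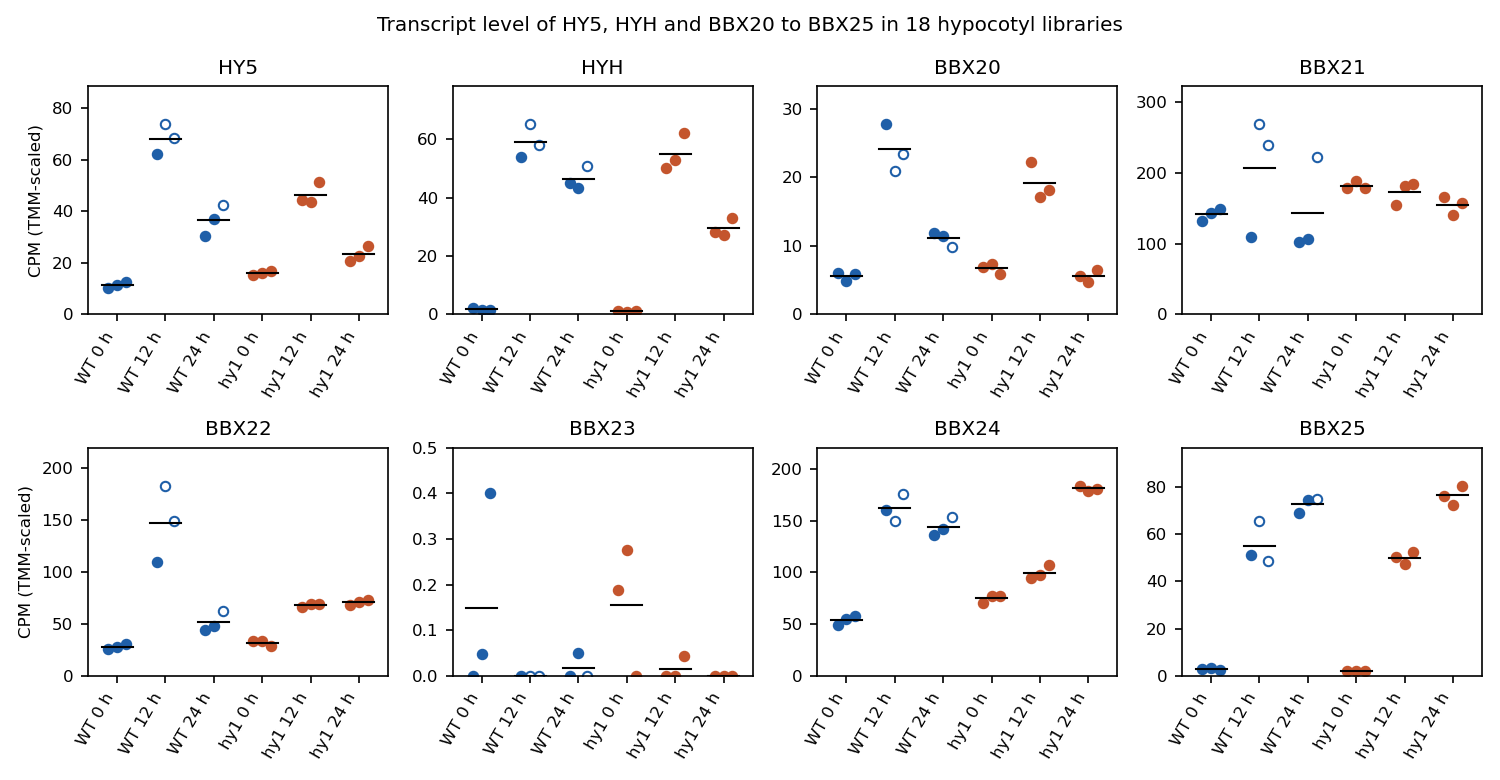
Level of each of the 8 genes in CPM (TMM-scaled, linear axis) in every library, by group, with blue for WT and orange for hy1, a line at the mean of 3 libraries, and open circles for the 3 deviating WT libraries. HYH and BBX25 start at 3.23 CPM or less in every dark library and lie at 27.1 CPM or more in every library in light, and the open circles of BBX21 lie at 222 to 269 CPM, above all other libraries of that gene.

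HY5, the bZIP factor at the centre of the group, was read in WT at 10.2, 11.5 and 12.6 CPM at 0 h, at 62.1, 73.8 and 68.5 at 12 h and at 30.4, 37 and 42.5 at 24 h. The hy1 libraries of HY5 gave 15.3, 16 and 16.9 CPM at 0 h, at 44.4, 43.4 and 51.2 at 12 h and at 20.8, 22.8 and 26.5 at 24 h. In both genotypes no library of one time overlapped with those of another, and 12 h was the highest time. The rise at 12 h was 2.58 ± 0.137 in WT (5.96-fold, adjusted p = 7.8e-10) and 1.53 ± 0.132 in hy1 (2.89-fold, adjusted p = 1.8e-07). By 24 h the level had fallen again by 0.90 in WT (adjusted p = 0.00047) and by 0.99 in hy1 (adjusted p = 0.00028), and it remained above darkness by 1.68 ± 0.134 in WT and by 0.54 ± 0.131 in hy1 (adjusted p = 5.2e-08 and 0.0034). In the fit of WT 12 h and 24 h alone the fall in WT did not pass the test (-0.89, adjusted p = 0.098).

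The order of the genotypes for HY5 turned over between darkness and light. In darkness all 3 hy1 libraries were above all 3 WT libraries, by 0.49 ± 0.132 (adjusted p = 0.013). In light all hy1 libraries were below those of WT, by -0.56 ± 0.129 at 12 h and by -0.65 ± 0.13 at 24 h (adjusted p = 0.0051 and 0.0026). The test of the difference itself, the interaction of genotype and time, gave -1.05 ± 0.184 for 12 h and -1.14 ± 0.185 for 24 h (adjusted p = 0.0021 and 0.001), so the rise of HY5 was smaller in hy1 at both times. Between 12 h and 24 h the interaction was -0.09 (adjusted p = 0.85). The difference in darkness lost its call without WT 0 h replicate 1 (0.40, adjusted p = 0.082) or hy1 0 h replicate 3 (0.45, adjusted p = 0.056), and that at 12 h without the 3 deviating WT libraries (-0.42, adjusted p = 0.053), whereas both interactions were called without them (-0.91 and -1.01, adjusted p = 0.0047 and 0.00056).

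HYH, the homologue of HY5, was read in WT at 2.19, 1.5 and 1.42 CPM at 0 h, at 53.8, 65.2 and 58.1 at 12 h and at 45, 43.3 and 50.8 at 24 h. For hy1 the HYH levels were 1.14, 0.687 and 1.31 CPM at 0 h, at 50, 52.9 and 62.3 at 12 h and at 28.1, 27.1 and 33.2 at 24 h. Every library in light was far above every dark library, and at 12 h the genotypes overlapped. HYH rose at 12 h by 5.11 ± 0.21 in WT (34.7-fold, adjusted p = 5.5e-11) and by 5.72 ± 0.219 in hy1 (52.6-fold, adjusted p = 4.6e-11). At 24 h it was above darkness by 4.77 ± 0.207 and 4.82 ± 0.213 (adjusted p = 1e-10 and 1.9e-10). From 12 h to 24 h it fell by 0.90 in hy1 (adjusted p = 0.0052), and in WT the libraries did not overlap but the change of -0.35 ± 0.17 did not pass the test (adjusted p = 0.21).

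HYH was lower in hy1 than in WT in darkness, by -0.7 ± 0.216 (adjusted p = 0.027), and at 24 h, by -0.65 ± 0.171 (adjusted p = 0.014), with no overlap at either time. At 12 h the difference was -0.1 with a 95% interval from -0.46 to 0.26 (adjusted p = 0.67). None of the 3 interactions passed the test for HYH. They were 0.6 ± 0.274 at 12 h (adjusted p = 0.15), 0.05 at 24 h with an interval from -0.52 to 0.62 (adjusted p = 0.95) and -0.55 ± 0.241 from 12 h to 24 h (adjusted p = 0.47). The difference in darkness lost its call without WT 0 h replicate 1 (-0.49, adjusted p = 0.15) or hy1 0 h replicate 2 (-0.49, adjusted p = 0.12), and that at 24 h without hy1 24 h replicate 1 or 2 (-0.63 and -0.58, adjusted p = 0.057 and 0.071).

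HYH and HY5 changed places between darkness and light on a scale per length of exon (CPM per kilobase, 1256 bases of exon for HY5 and 775 for HYH). The ratio of HYH to HY5 was 0.349, 0.21 and 0.184 in the WT 0 h libraries and 0.121, 0.0697 and 0.126 in those of hy1. At 12 h it was 1.4, 1.43 and 1.37 in WT and 1.82, 1.97 and 1.97 in hy1, and at 24 h 2.4, 1.9 and 1.94 and 2.18, 1.92 and 2.03. HY5 was thus the more abundant of the pair in all 6 dark libraries and HYH in all 12 libraries in light, and at 12 h the ratio was higher in every hy1 library than in every WT library.

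**Figure D2:**
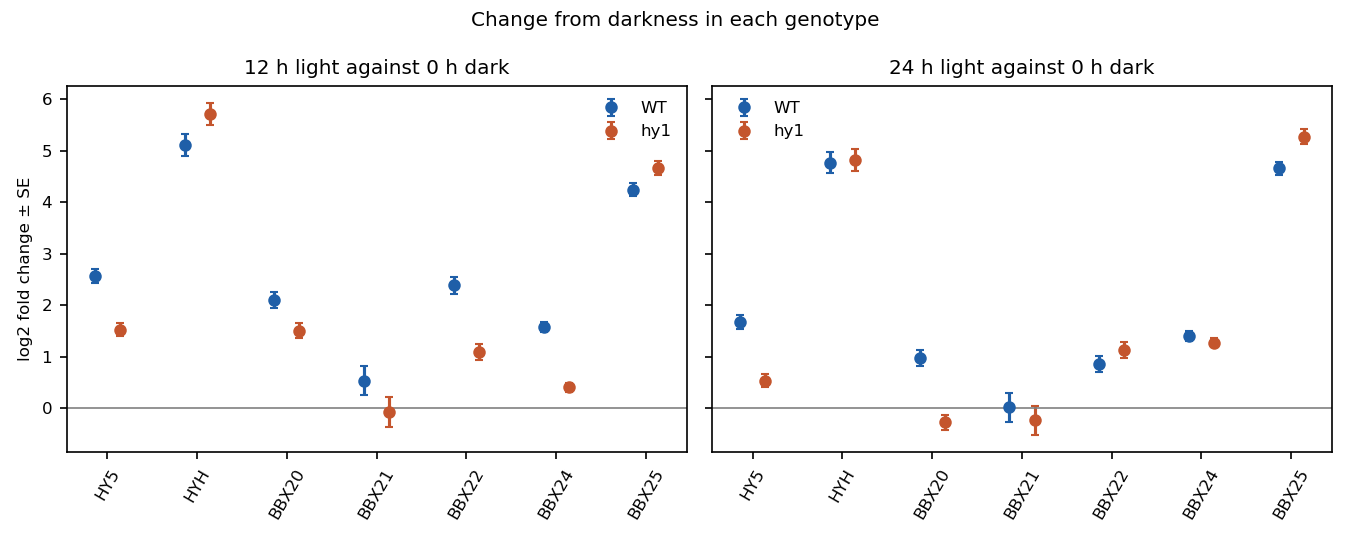
Log2 fold change ± standard error of the 7 tested genes at 12 h (left) and 24 h (right) against 0 h, WT in blue and hy1 in orange. HYH and BBX25 lie above 4 in both genotypes and at both times, and the orange points of HY5, BBX22 and BBX24 lie below the blue ones at 12 h, by 1.05 to 1.3.

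BBX20, a promoter of photomorphogenesis that also acts in brassinosteroid signalling, was the least abundant of the 7 tested genes in light per length of exon. In WT it was read at 6.11, 4.91 and 5.85 CPM at 0 h, at 27.8, 21 and 23.5 at 12 h and at 11.9, 11.5 and 9.91 at 24 h. Its levels in the hy1 libraries were 6.93, 7.35 and 5.95 CPM at 0 h, at 22.2, 17.1 and 18.2 at 12 h and at 5.61, 4.75 and 6.43 at 24 h. At 24 h the WT libraries were still above those of darkness, and in hy1 the libraries of 24 h overlapped with those of darkness. BBX20 rose at 12 h by 2.1 ± 0.154 in WT (adjusted p = 2.5e-08) and by 1.51 ± 0.151 in hy1 (adjusted p = 8.8e-07), and fell from 12 h to 24 h by 1.12 in WT (adjusted p = 0.00024, and 0.05 in the fit of those groups alone) and by 1.78 in hy1 (adjusted p = 4.9e-06). At 24 h WT was above darkness by 0.98 ± 0.152 (adjusted p = 6.4e-05), and in hy1 the change was -0.27 ± 0.152 (adjusted p = 0.18).

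At 24 h BBX20 was lower in every hy1 library than in every WT library, by -0.99 ± 0.151 (adjusted p = 0.00037), and the interaction at 24 h was -1.25 ± 0.214 (adjusted p = 0.0015). At 0 h the genotype difference was 0.26 ± 0.152 (adjusted p = 0.23) and at 12 h -0.33 ± 0.146 (adjusted p = 0.092), with overlapping libraries. The interaction at 12 h was -0.59 ± 0.211 (adjusted p = 0.073). Without the 3 deviating WT libraries the difference and the interaction at 12 h were called (-0.54 and -0.8, adjusted p = 0.039 and 0.027), and without hy1 12 h replicate 1 the difference was (-0.46, adjusted p = 0.049).

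BBX21, a promoter of photomorphogenesis that binds the HY5 promoter, was the gene whose values rested most on single libraries. In WT it was read at 132, 144 and 149 CPM at 0 h, at 110, 269 and 240 at 12 h and at 103, 106 and 222 at 24 h. The hy1 levels of BBX21 were 178, 189 and 178 CPM at 0 h, at 154, 181 and 185 at 12 h and at 166, 140 and 158 at 24 h. The 3 high WT libraries are those that deviated across genes, and they exceeded the rest of their groups by 1.2 (12 h) and 1.09 (24 h) on the log2 scale. The remaining WT libraries in light lay below all 3 dark WT libraries.

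With all 18 libraries BBX21 passed the test in none of the 12 comparisons. The changes in WT were 0.54 ± 0.288 at 12 h (95% interval from -0.07 to 1.16, adjusted p = 0.12) and 0.02 at 24 h (interval from -0.59 to 0.63, adjusted p = 0.96). Without the 3 libraries their sign turned and they were called, at -0.36 (adjusted p = 0.022) and -0.44 (adjusted p = 0.00087). Conversely, without WT 12 h replicate 1 the change at 12 h was 0.85 (adjusted p = 0.0062), and without WT 24 h replicate 3 it was 0.55 (adjusted p = 0.047). The fall from 12 h to 24 h in WT, -0.52 (adjusted p = 0.26), was called without either of those libraries (-0.83 and -1.01, adjusted p = 0.014 for each). No direction of BBX21 in WT light can therefore be given.

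In darkness, where no library deviated in this way, all 3 hy1 libraries of BBX21 were above all 3 WT libraries. The difference of 0.36 ± 0.288 missed the test in the fit of all libraries (adjusted p = 0.4), which shares 1 estimate of the spread, and was called when the 2 dark groups were fitted alone (0.36, adjusted p = 0.0033) and without the 3 libraries (0.36, adjusted p = 0.0028). In hy1 the libraries of 24 h lay below those of darkness, with a change of -0.23 ± 0.287 (adjusted p = 0.56). It was called when the 2 groups were fitted alone (-0.22, adjusted p = 0.045) and without the 3 deviating libraries (-0.23, adjusted p = 0.029). At 12 h and 24 h the genotype differences were -0.25 (adjusted p = 0.52) and 0.11 (adjusted p = 0.82). Without the 3 libraries, which leaves 1 library at WT 12 h, they were 0.65 and 0.57. Over all alternatives they ran from -0.57 to 0.65 at 12 h and from -0.08 to 0.6 at 24 h. Without WT 12 h replicate 1 the interaction at 12 h was called at -0.92 (adjusted p = 0.035), against -0.61 with all libraries (adjusted p = 0.31). No direction between the genotypes in light can therefore be given.

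BBX22, a promoter of photomorphogenesis and a known target of HY5, was read in WT at 26.3, 27.4 and 30.7 CPM at 0 h, at 110, 183 and 149 at 12 h and at 43.8, 48.3 and 62.1 at 24 h. The corresponding hy1 levels were 33.3, 33.6 and 29 CPM at 0 h, at 66.2, 68.7 and 68.7 at 12 h and at 67.8, 70.8 and 73.3 at 24 h. WT thus peaked at 12 h, whereas hy1 stood at much the same level at both times in light, below that peak. BBX22 rose at 12 h by 2.39 ± 0.162 in WT (5.23-fold, adjusted p = 1e-08) and by 1.09 ± 0.156 in hy1 (2.12-fold, adjusted p = 3.6e-05). From 12 h to 24 h it fell by 1.52 in WT (adjusted p = 2.2e-05, and 0.065 when those groups were fitted alone), and in hy1 the change was 0.06 with an interval from -0.27 to 0.39 (adjusted p = 0.93). At 24 h it was above darkness by 0.87 ± 0.156 in WT and 1.14 ± 0.156 in hy1 (adjusted p = 0.00025 and 2.5e-05).

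BBX22 differed between the genotypes in opposite directions at the times in light. At 12 h all hy1 libraries were below all WT libraries, by -1.12 ± 0.155 (adjusted p = 0.00015), and at 24 h all were above, by 0.46 ± 0.154 (adjusted p = 0.047). In darkness the difference was 0.18 ± 0.155 (adjusted p = 0.43) and the libraries overlapped. The interaction was -1.3 ± 0.219 at 12 h (adjusted p = 0.0016), 0.28 ± 0.219 at 24 h (adjusted p = 0.53) and 1.58 ± 0.219 from 12 h to 24 h (adjusted p = 0.002). The difference at 24 h lay close to the threshold, with adjusted p from 0.056 to 0.17 when any of 15 libraries was left out, and was 0.62 without the 3 deviating WT libraries (adjusted p = 1e-04), where the interaction at 24 h was also called (0.44, adjusted p = 0.016) and that at 12 h was -0.88 (adjusted p = 0.00057).

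BBX23, which is known to act with BBX22 as a promoter of photomorphogenesis, was barely read. It had 0, 2 and 18 counts in the WT 0 h libraries and 8, 12 and 0 in those of hy1. In light it had 2 counts in WT 24 h replicate 2, 2 in hy1 12 h replicate 3 and 0 in the other 10 libraries. The 44 counts in all came from 6 libraries, with a highest level of 0.4 CPM, where 3 counts correspond to 0.0501 to 0.078 CPM. Each mate of a read pair was counted, and the counts were even in all 6 of these libraries. The limit that a count of 0 allows thus lies above 3 counts. The gene did not pass the filter on low counts, and with no filter its smallest adjusted p over the 12 comparisons was 0.065. Without the 3 libraries it passed the filter and was called as lower at 24 h than at 0 h in hy1 (adjusted p = 0.047). It was also called as lower at WT 12 h than at 0 h without WT 0 h replicate 1 (adjusted p = 0.033) or hy1 0 h replicate 3 (adjusted p = 0.044), and at hy1 24 h than at 0 h without the latter (adjusted p = 0.038). A difference between groups was thus not detectable for BBX23 at this depth with all libraries.

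BBX24, the first of the pair known to oppose HY5, was read in WT at 49.7, 54.9 and 57.7 CPM at 0 h, at 160, 150 and 176 at 12 h and at 136, 142 and 154 at 24 h. The hy1 libraries of BBX24 held 70.5, 77.5 and 76.8 CPM at 0 h, at 94.5, 97.1 and 107 at 12 h and at 184, 179 and 181 at 24 h. WT was near its later level by 12 h, whereas hy1 made most of its rise between 12 h and 24 h. The rise at 12 h was 1.58 ± 0.0932 in WT (3-fold, adjusted p = 2.2e-09) and 0.41 ± 0.0912 in hy1 (1.33-fold, adjusted p = 0.0017). From 12 h to 24 h the change was -0.17 ± 0.0909 in WT (adjusted p = 0.24) and a rise of 0.87 ± 0.0915 in hy1 (adjusted p = 3.7e-05). At 24 h both were above darkness, by 1.41 ± 0.0928 in WT and 1.28 ± 0.0924 in hy1 (adjusted p = 7.2e-09 and 3.2e-08).

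BBX24 was higher in hy1 in darkness, by 0.47 ± 0.0914 (adjusted p = 0.0015), lower at 12 h, by -0.7 ± 0.0913 (adjusted p = 8.7e-05), and higher again at 24 h, by 0.33 ± 0.0909 (adjusted p = 0.017), with no overlap at any time. The interaction was -1.17 ± 0.129 at 12 h (adjusted p = 6.7e-05), the smallest adjusted p of the 7 genes there, -0.14 ± 0.129 at 24 h (adjusted p = 0.61) and 1.04 ± 0.129 from 12 h to 24 h (adjusted p = 0.00063). BBX22 and BBX24 thus shared a smaller rise in hy1 at 12 h. From 12 h to 24 h BBX24 rose in hy1, whereas the positive interaction of BBX22 came with a fall in WT and a change of 0.06 in hy1. The difference of BBX24 at 24 h lost its call without WT 24 h replicate 1 or 2 or hy1 24 h replicate 1 (0.3, 0.32 and 0.32, adjusted p = 0.066, 0.052 and 0.064) and when the 2 groups were fitted alone (adjusted p = 0.064).

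BBX25, the partner of BBX24 in opposing HY5, was read in WT at 2.95, 3.23 and 2.47 CPM at 0 h, at 51.2, 65.5 and 48.4 at 12 h and at 69, 74.5 and 74.7 at 24 h. For BBX25 the hy1 levels were 2.06, 1.92 and 1.92 CPM at 0 h, at 50.2, 47.4 and 52.5 at 12 h and at 76.1, 72.4 and 80.5 at 24 h. Every library in light was far above every dark library, and the genotypes overlapped at both times in light. The rise at 12 h was 4.25 ± 0.131 in WT (19.1-fold, adjusted p = 3.1e-12) and 4.67 ± 0.135 in hy1 (25.4-fold, adjusted p = 2.4e-12). At 24 h it was 4.66 ± 0.133 and 5.28 ± 0.138 (adjusted p = 2e-12 and 6.8e-13), after a further rise of 0.61 ± 0.112 in hy1 (adjusted p = 0.0042) and of 0.4 ± 0.112 in WT (adjusted p = 0.035), which lost its call when any of 9 libraries was left out (adjusted p from 0.051 to 0.16) or the 2 groups were fitted alone (0.39).

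In darkness BBX25 was lower in all hy1 libraries than in all WT libraries, by -0.55 ± 0.129 (adjusted p = 0.0059). In light the differences were -0.14 at 12 h (interval from -0.38 to 0.1, adjusted p = 0.35) and 0.07 at 24 h (interval from -0.17 to 0.31, adjusted p = 0.71). The interaction was 0.41 ± 0.171 at 12 h (adjusted p = 0.12), 0.62 ± 0.171 at 24 h (adjusted p = 0.034) and 0.21 from 12 h to 24 h (adjusted p = 0.67). The interaction at 24 h missed the threshold without any 1 of 9 libraries (adjusted p from 0.055 to 0.092), and that at 12 h passed it without the 3 deviating WT libraries (0.52, adjusted p = 0.041) or without WT 12 h replicate 2 (0.56, adjusted p = 0.025).

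The pair differed in how it was read in darkness. Per kilobase of exon, the ratio of BBX25 to BBX24 was 0.069, 0.0685 and 0.0498 in the WT 0 h libraries and 0.034, 0.0289 and 0.0291 in those of hy1. At 12 h it was 0.372, 0.509 and 0.319 in WT and 0.618, 0.568 and 0.57 in hy1, and at 24 h 0.593, 0.611 and 0.564 and 0.48, 0.471 and 0.516. BBX24 was the more abundant of the pair in every library. The ratio was lower in every hy1 library than in every WT library at 0 h and 24 h and higher at 12 h.

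Over the 7 tested genes, the genotypes differed in 4 at 0 h, 3 at 12 h and 5 at 24 h. At 0 h HY5 and BBX24 were higher in hy1 and HYH and BBX25 lower, where 24.6% of all tested genes were called, 12.2% higher and 12.4% lower. At 12 h HY5, BBX22 and BBX24 were lower in hy1 and none was higher, where 32.7% of all genes were called, 14.9% higher and 17.8% lower. At 24 h HY5, HYH and BBX20 were lower and BBX22 and BBX24 higher, where 20.6% were called, 10.5% higher and 10.2% lower. The rise to 12 h differed between the genotypes for HY5, BBX22 and BBX24, where 13.5% of genes had a called interaction (6.73% higher in hy1 and 6.8% lower), and that to 24 h for HY5, BBX20 and BBX25, where 8.67% had one (5.18% higher and 3.49% lower). Between 12 h and 24 h BBX22 and BBX24 had a called interaction, where 0.539% of genes had one (0.425% higher and 0.115% lower). Without the 3 deviating WT libraries, which leaves 1 library at WT 12 h, the interaction at 12 h was -0.8 for BBX20 and 0.52 for BBX25. With all libraries these were -0.59 and 0.41.

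These shares of all genes moved with the libraries in the fit. Without the 3 deviating libraries 45.2% of all genes were called between the genotypes at 0 h, 18.9% at 12 h and 33.6% at 24 h. The share was then 16.5% for the interaction at 24 h, 4.47% for WT 24 h against 12 h and 16.2% for hy1 24 h against 12 h. With 1 library left out it was highest without WT 12 h replicate 1 in every comparison, at 52.2% between the genotypes at 12 h, 40.6% and 8.5% for the interactions at 12 h and from 12 h to 24 h, and 39% for WT 24 h against 12 h. The lowest were 16.1% between the genotypes at 0 h (without WT 0 h replicate 1), 19.1% at 12 h (without WT 12 h replicate 3) and 12% at 24 h (without hy1 24 h replicate 1). For the interactions they were 7.84% at 12 h (without hy1 0 h replicate 2) and 0.306% from 12 h to 24 h (without WT 24 h replicate 2). From 12 h to 24 h they were 4.41% in WT (without WT 24 h replicate 1) and 2.46% in hy1 (without hy1 24 h replicate 1).

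**Figure D3:**
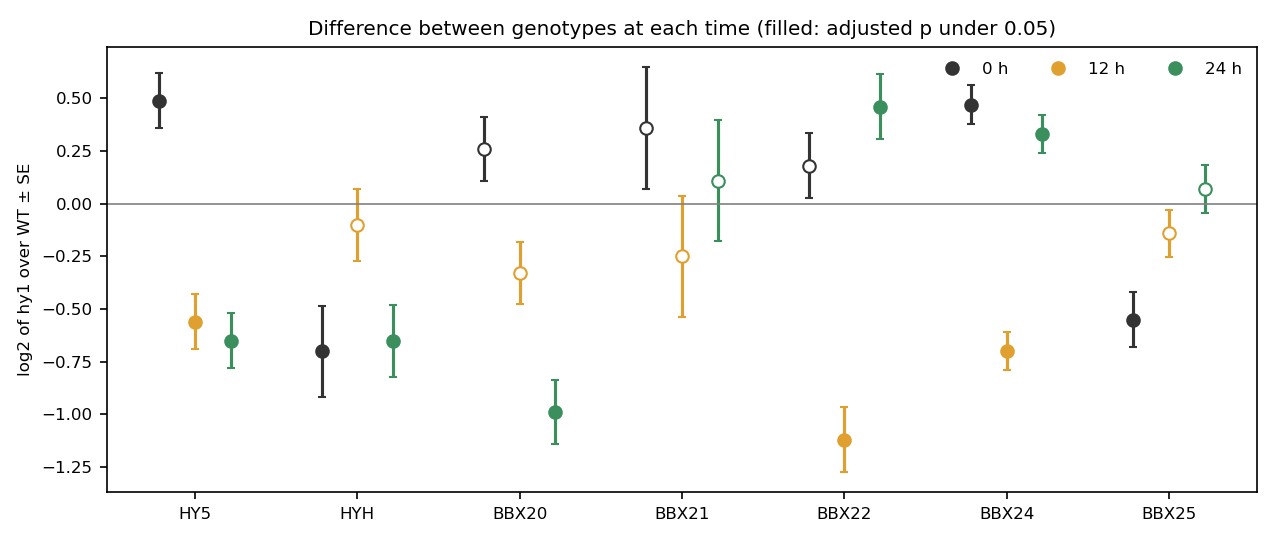
Log2 difference ± standard error of hy1 over WT for the 7 tested genes at 0 h (black), 12 h (orange) and 24 h (green), with filled points where the adjusted p was under 0.05. HY5 lies above 0 in darkness and below 0 at both times in light, BBX24 goes from 0.47 to -0.7 to 0.33, and BBX25 lies at -0.55 in darkness and near 0 in light.

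The order of the levels per kilobase of exon was much the same in both genotypes in darkness and changed with light. At WT 0 h BBX21 was highest at 90.1 ± 5.43 CPM per kilobase (SD, n = 3), followed by BBX24 at 36.7 ± 2.74, BBX22 at 16.2 ± 1.32, HY5 at 9.09 ± 0.963 and BBX20 at 3.96 ± 0.443, with no overlap between neighbours. BBX25 at 2.27 ± 0.303 and HYH at 2.2 ± 0.545 overlapped with each other. The order in hy1 at 0 h was the same, from BBX21 at 116 ± 4.24 to HYH at 1.35 ± 0.416. At WT 12 h each of the top 4 genes overlapped with the next, BBX21 at 131 ± 53.8, BBX24 at 110 ± 9.1, BBX22 at 84.9 ± 21 and HYH at 76.2 ± 7.44, and HY5 at 54.3 ± 4.69 overlapped with BBX25 at 43.4 ± 7.24. At hy1 12 h BBX21 at 110 ± 10.7 was followed by HYH at 71.1 ± 8.33 and BBX24 at 67.5 ± 4.5, which overlapped, and BBX25, BBX22 and HY5 lay together at 39.4 ± 2.01, 39.1 ± 0.817 and 36.9 ± 3.36. At 24 h BBX24 was highest by its mean in both genotypes, at 97.5 ± 6.43 in WT, where BBX21 at 91.4 ± 43.4 overlapped with it, and at 123 ± 1.89 in hy1, where BBX21 at 98.6 ± 8.58 did not. BBX20 was the lowest of the 7 at both times in light in both genotypes.

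**Figure D4:**
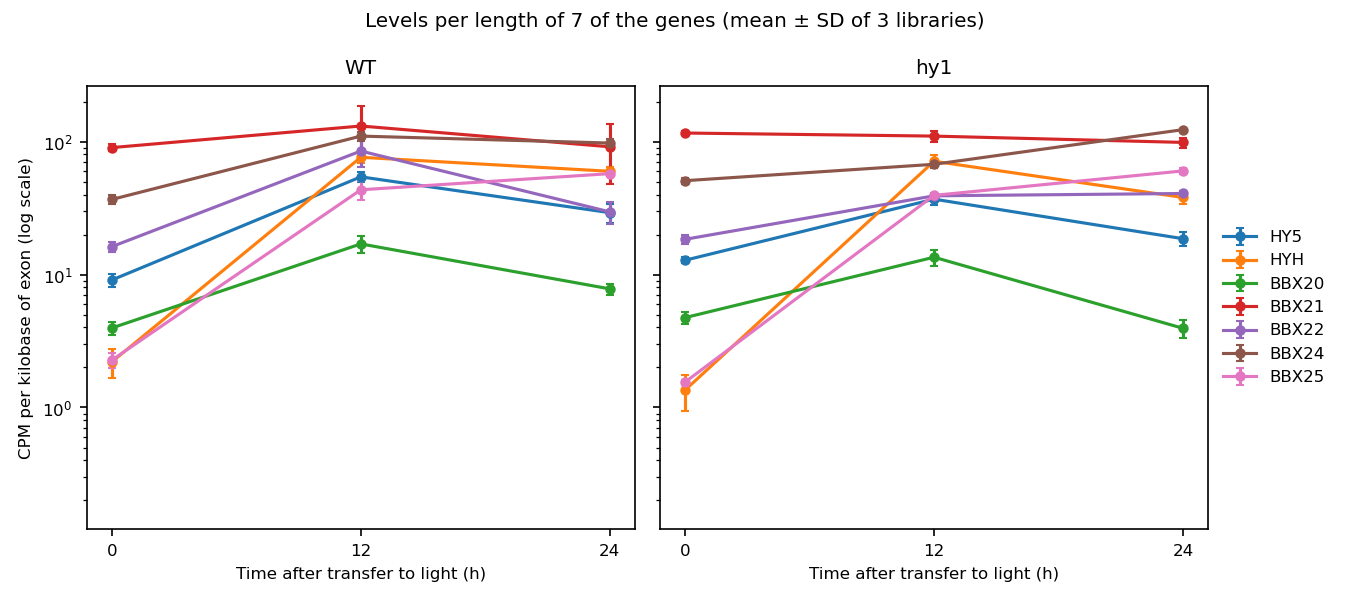
Mean level per kilobase of exon ± SD of the 7 tested genes (log axis) against time after the move to light, WT left and hy1 right, 3 libraries a point. HYH and BBX25 climb from about the lowest place in darkness into the middle of the group, and BBX21 runs nearly flat, with a wide SD in WT in light.

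The likeness of expression patterns was measured as the root mean square difference of centred log2(CPM + 0.5) values over the 18 libraries, which share depth, groups and the 3 deviating WT libraries. It is a description with no test. Among the 8 genes the closest pairs were HY5 with BBX20 at 0.397 and HY5 with BBX22 at 0.403, followed by BBX22 with BBX24 at 0.494 and HYH with BBX25 at 0.538. Among 15039 genes that averaged 5 CPM or more, BBX20 ranked 87 in nearness to HY5 and BBX22 ranked 104. BBX24 ranked 405 in nearness to BBX22, and BBX25 ranked 10 in nearness to HYH. HY5 and HYH were 1.52 apart, but the measure takes in the size of a change (2.58 and 5.11 in WT at 12 h). Of the 15039 genes, those nearest to HY5 were AT3G16350 at 0.211, SCA3 at 0.242 and ECB2 at 0.281. AT3G16350 was read at 10.5 ± 0.414, 57.9 ± 4.1 and 42.7 ± 2.54 CPM in WT over the 3 times and at 14.9 ± 0.419, 38.1 ± 3.86 and 23.7 ± 0.759 in hy1, with a higher mean in hy1 in darkness and a lower one in light, differences that were not tested here. SCA3 and ECB2 overlapped in spread between the genotypes in darkness, at 16 ± 1.65 and 5.09 ± 0.815 CPM in WT and 17.1 ± 2.17 and 5.31 ± 0.644 in hy1.

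Nearest to HYH were TZP at 0.414, RUP2 at 0.441 and the MIR163 locus at 0.449, counted as an annotated gene and not as a mature microRNA. For BBX25 they were AT1G57770 at 0.355, AT1G22750 at 0.399 and ENH1 at 0.417, and for BBX20 AT5G22020 at 0.294, AT1G65560 at 0.364 and CM1 at 0.392. For BBX22 they were UVR3, a DNA photolyase, at 0.25, CYP81H1 at 0.258 and UGT73B1 at 0.28. For BBX24 they were SEX1, a glucan water dikinase of starch breakdown, at 0.234, AT5G19540 at 0.237 and AT3G07700 at 0.242. For BBX21 they were AT5G41350 at 0.118, LOG2 at 0.119 and ERF3 at 0.128, and LOG2 varied in WT in light as BBX21 did, at 119 ± 54.7 CPM at 12 h against 79.2 ± 3.32 in hy1.

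Of 12 genes for the COP1/SPA and DET1 ubiquitin ligases and the RUP repressors of UV-B signalling, which act upstream of HY5 protein, 9 rose and none fell in WT at 12 h, with a median change of 1.48 against 0.01 for all genes. In hy1 6 rose and 1 fell, with a median of 0.54. Of all genes 28.3% rose in WT and 22.9% in hy1. RUP2 rose by 4.53 ± 0.146 in WT, SPA4 by 1.98 ± 0.119, SPA1 by 1.97 ± 0.138 and SPA3 by 1.89 ± 0.119 (adjusted p = 5.1e-12, 2.6e-09, 1.5e-08 and 4.2e-09). By the interaction at 12 h 5 of the 12 had a lower change in hy1 and none a higher one, where 6.8% of all genes had a lower one. Among the 5 were SPA2 at -0.83 ± 0.11 (adjusted p = 0.00028) and DDB1A at -0.63 ± 0.149 (adjusted p = 0.013). SPA4 at -0.61 ± 0.162 and COP1 at -0.58 ± 0.169 (adjusted p = 0.023 and 0.036) lost their calls without the 3 deviating WT libraries (-0.34 and -0.22). Both also lost them by limma on log2 of the deposited FPKM + 1 (-0.44 and -0.4, adjusted p = 0.081 and 0.12). The same held when any of several single libraries was left out. COP1 was read at 32 ± 1.16, 66.6 ± 12.8 and 53.6 ± 6.77 CPM in WT over the 3 times and at 37.2 ± 0.669, 51.9 ± 2.73 and 51.9 ± 0.409 in hy1.

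Of 28 genes known as targets of HY5, 27 were tested, and 22 rose and 2 fell in WT at 12 h, with a median change of 3.54. In hy1 23 rose and 2 fell, with a median of 3.72, against 0.01 for all genes in either genotype, of which 28.3% rose in WT and 22.9% in hy1. At 24 h the medians were 3.41 in WT and 1.97 in hy1. Between the genotypes 3 were higher and 9 lower in hy1 at 12 h, and 3 higher and 11 lower at 24 h. Of all genes 14.9% were higher and 17.8% lower at 12 h, and 10.5% higher and 10.2% lower at 24 h. RUP1, RUP2, BBX30 and BBX31 are on another list here too. CHS, the first enzyme of flavonoid synthesis, went in WT from 0.481 ± 0.123 CPM in darkness to 3800 ± 550 at 12 h and 1370 ± 159 at 24 h. The hy1 libraries reached 725 ± 171 CPM and 126 ± 20.2 CPM, lower than in WT by -2.39 ± 0.278 and -3.45 ± 0.291 (adjusted p = 3.6e-05 and 1.9e-06). In darkness CHS was at 0.11 ± 0.118 CPM in hy1, with a lowest library of 0, and lower than in WT (-2.11 ± 0.531, adjusted p = 0.0087). Its interactions did not pass the test (-0.28 at 12 h and -1.33 at 24 h, adjusted p = 0.8 and 0.29). The dark difference and the interactions rest on a dark level of very few reads, near that of 3 counts (0.0501 to 0.078 CPM). MYB12, the activator of flavonol genes, and TT7, a flavonoid hydroxylase, rose less in hy1, with interactions at 12 h of -2 ± 0.326 and -2 ± 0.297 (adjusted p = 0.0013 and 6e-04). FLS1, the flavonol synthase, rose at 12 h by 11.17 ± 0.319 in WT (adjusted p = 1.6e-12), from 0.224 ± 0.0518 to 522 ± 59.8 CPM.

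SIG5, a plastid sigma factor and HY5 target, had the turnover of genotypes seen for BBX24. It was read in WT at 1.06 ± 0.229, 64.8 ± 6.46 and 41.4 ± 1.98 CPM over the 3 times and in hy1 at 1.68 ± 0.289, 37.1 ± 2.37 and 65.1 ± 2.22. It was higher in hy1 at 0 h by 0.65 ± 0.157, lower at 12 h by -0.81 ± 0.125 and higher at 24 h by 0.66 ± 0.124 (adjusted p = 0.0065, 0.00034 and 0.0018). The interaction was -1.46 ± 0.2 at 12 h (adjusted p = 0.00032). BBX31, a B-box gene known as a HY5 target, had the opposite sign at 4.11 ± 0.662 (adjusted p = 0.0012). Its levels at 0 h and 12 h were 0.249 ± 0.0779 and 0.258 ± 0.116 CPM in WT. In hy1 they were 0.0772 ± 0.0522 and 1.41 ± 0.069 CPM. The dark mean in hy1 lay at the level of 3 counts (0.0501 to 0.078 CPM), so the interaction rests in part on very few reads. The genotype difference at 12 h was 2.47 ± 0.396 (adjusted p = 0.00043).

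The 25 other B-box genes whose symbols the annotation holds moved in both directions. Of 20 tested, 8 rose and 5 fell in WT at 12 h and 9 rose and 6 fell in hy1, with medians of 0.12 and 0.33, where 53.6% and 44.2% of all genes were called. BBX6, also called COL5, fell by 1.61 in WT (adjusted p = 3e-08), from 234 ± 12.1 to 76.5 ± 10.6 CPM. BBX28, which is known to hinder HY5, fell by 1.08 in WT (adjusted p = 4e-07), and its interaction at 12 h was -1.07 ± 0.145 (adjusted p = 0.00031). In WT at 12 h BBX32 rose by 4.39 ± 0.383 and BBX18 by 1.88 ± 0.182 (adjusted p = 1.5e-07 and 4.7e-07). BBX32 was barely read in darkness and went from 0.093 ± 0.00351 to 2.01 ± 0.518 CPM, and BBX18 from 2.77 ± 0.247 to 10.2 ± 1.39 CPM. BBX19 and BBX3 had interactions at 12 h of 1.09 ± 0.212 and 1.05 ± 0.211 (adjusted p = 0.0041 and 0.005). By that interaction 5 of the 20 were higher and 2 lower, where 13.5% of all genes were called.

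Of 11 genes for factors that act on HY5 transcription or bind G-box motifs, 10 were tested. In WT at 12 h 2 rose and 4 fell, with a median of -0.02, and in hy1 1 rose and 4 fell. Of all genes 53.6% were called in WT and 44.2% in hy1. Both these counts and the shares of all genes moved without the 3 deviating WT libraries, a fit with 1 library at WT 12 h. GBF1, a G-box bZIP factor, fell by 0.99 in WT (adjusted p = 4.2e-07) from 59.5 ± 3.41 to 29.9 ± 1.62 CPM, and GBF2 fell by 0.43 (adjusted p = 0.0086). UVR8, the UV-B receptor, rose by 0.4 ± 0.11 in WT at 12 h (adjusted p = 0.0062, and 0.21 without the 3 libraries) and FAR1, an activator of phytochrome A signalling, by 0.34 ± 0.0986 (adjusted p = 0.009, and 0.074 without them). UVR8 alone of the 10 had a called interaction at 12 h, at -0.6 ± 0.156 (adjusted p = 0.02). UVR8 lost this call by limma on log2 of the deposited FPKM + 1 (-0.44, adjusted p = 0.069) and when any of several single libraries was left out. FHY3, which activates HY5 with FAR1, and WRKY36, which represses it, had interactions of -0.4 ± 0.15 and -1.12 ± 0.419 (adjusted p = 0.085 for each), and FAR1 one of -0.39 ± 0.139 (adjusted p = 0.072). By the DESeq2 Wald test these were called (adjusted p = 0.045, 0.045 and 0.029 in that order). Without WT 12 h replicate 1 they were called too (edgeR, adjusted p = 0.012, 0.0055 and 0.033).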

How the data were processed

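Per the labels' protocols, total RNA of hypocotyls was extracted with TRIzol and turned into poly-A libraries by a TruSeq kit. Counts per gene were taken as deposited. The authors made them with featureCounts 2.0.3 on a TAIR10 annotation, per the file headers, with each mate of a pair counted, strand ignored and reads of several places or several genes left out. STAR 2.7.8a, StringTie 2.1.3 and HTSeq are named, with no role, in the submitters' processing notes. The FPKM the authors deposited were 10 times the FPKM computed from the counts in all 408813 values compared (tolerance 0.001) and were used in alternatives alone. Of 32833 genes 32548 were found by locus in the TAIR10.1 annotation, 99.95% with the same start and end.

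The software was R 4.3.3, with DESeq2 1.42.0, limma 3.58.1 and edgeR 4.0.16. A quasi-likelihood model of edgeR with a mean for each of 6 groups, TMM factors (0.971 to 1.07) and edgeR's filter by expression, which kept 20955 genes, was fitted to the 18 libraries, and tested on simulated data. Each of the 12 comparisons was adjusted over all tested genes by Benjamini and Hochberg, two-sided. Intervals and limits of detection cover counting error only where they rest on single counts. Alternatives were other scalings, filters and thresholds, the DESeq2 Wald test, limma on log2 of the deposited FPKM + 1 or + 0.1, the groups alone, a replicate block and libraries left out. Levels per kilobase were also taken from the deposited FPKM, an alternative chosen after seeing the data.

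The 8 genes and all lists were chosen with earlier results of these data known. Named besides the 8 were HY1, the 3 genes nearest in pattern to each of the 7 tested, and up to 4 genes a list with the smallest adjusted p in WT at 12 h and in the interaction at 12 h. SIG5 and CHS are also given in other comparisons, a choice made after their values were seen, and BBX11 was left out because the annotation holds no such symbol. Protein sequences were not used here.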

Additional observations from a re-analysis of the deposited data

Results flagged for a closer look

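The change with time differed between the genotypes by a called interaction in 8 cases, each over 3 libraries a group. Over 12 h of light the change was smaller in hy1 for HY5 (-1.05 ± 0.184, adjusted p = 0.0021), BBX22 (-1.3 ± 0.219, adjusted p = 0.0016) and BBX24 (-1.17 ± 0.129, adjusted p = 6.7e-05). Over 24 h it was smaller in hy1 for HY5 (-1.14 ± 0.185, adjusted p = 0.001) and BBX20 (-1.25 ± 0.214, adjusted p = 0.0015) and larger for BBX25 (0.62 ± 0.171, adjusted p = 0.034). Between 12 h and 24 h it was higher in hy1 for BBX22 (1.58 ± 0.219, adjusted p = 0.002) and BBX24 (1.04 ± 0.129, adjusted p = 0.00063). The first 6 share the 0 h libraries of both genotypes, and those over 12 h and between 12 h and 24 h share the 12 h libraries.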

How the results depend on the processing

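For the 7 tested genes in 12 comparisons, 2436 values under an alternative kept their side of the threshold. Some of these changed sign but were called in neither fit, such as HYH for hy1 against WT at 12 h (-0.2 to 0.04). A call was lost in 60 values and gained in 21, and 3 reversed, with a change of sign and a call in at least 1 fit. The reversals were BBX21 without the 3 WT libraries that stood apart, at -0.36 (WT 12 h against 0 h), -0.44 (WT 24 h against 0 h) and 0.65 (hy1 against WT at 12 h), each called there and of the other sign and not called with all libraries. The cause was not tested. Without those libraries, a fit with 1 library at WT 12 h, the interaction at 12 h was -0.8 for BBX20 and 0.52 for BBX25. With only the 2 groups compared in the fit, 0 of 7 genes were called between WT 12 h and 24 h in place of 4 (edgeR; 5 at an unadjusted p under 0.05, and 4 by DESeq2 on all groups), and 3 in place of 5 between genotypes at 24 h. The changes between WT 12 h and 24 h kept their size in that fit (HY5 -0.89, BBX20 -1.12, BBX22 -1.52 and BBX25 0.41). At an adjusted p under 0.01, 2 were called between genotypes at 0 h and 2 at 24 h. The share of all genes called is not given for that fit or threshold, so the lower counts cannot be called particular to these genes. With 1 library left out, the genes called ranged from 6 to 7 for WT 12 h against 0 h, from 6 to 6 for WT 24 h against 0 h and from 3 to 5 for WT 24 h against 12 h. In hy1 they ranged from 6 to 6, from 5 to 6 and from 5 to 5. Between the genotypes they ranged from 2 to 4 at 0 h, from 3 to 4 at 12 h and from 2 to 5 at 24 h. For the interactions they ranged from 3 to 4 at 12 h, from 2 to 3 at 24 h and from 2 to 3 from 12 h to 24 h.

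With the replicate number as a block, the genes called were 6, 6 and 4 in WT, 6, 5 and 5 in hy1, 4, 3 and 5 between genotypes and 3, 3 and 2 for the interactions, as without the block. Deviations from group means of libraries of 1 number had correlations from -0.098 to 0.758 (number 1), -0.477 to 0.12 (number 2) and -0.116 to 0.653 (number 3). Some libraries of a number thus deviated alike and others did not. With 3 libraries a group this cannot settle whether a number marks a shared batch. Upper-quartile factors moved the median of all genes in the interaction at 12 h by 0.106 and the share of calls that were higher from 49.8% to 65.8%. For the named genes of the lists and HY1, 919 values kept their call, 58 lost one, 13 gained one and none reversed. With all libraries BBX23 alone of the 8 genes did not pass the filter on low counts. HYH had 30 to 92 counts in the dark libraries, and how far depth limits the tested genes was not tested.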
